A study of Mus musculus with 18 samples.

Results

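Maternal mRNA is broken down in the cytoplasm by a short chain of enzymes, and the 8 genes described here encode its last steps. They are the terminal uridylyltransferases Tut4 and Tut7, the exonuclease Dis3l2, the decapping genes Dcp1a, Dcp2, Edc3 and Edc4, and the exonuclease Xrn1. The genes were chosen by name for these roles, all 8 were found among the 47069 genes listed for each oocyte, and all 8 were among the 12037 genes left by a filter on low counts. The data were SMART-seq2 libraries of single oocytes from wild-type C57BL/6 mice. At 12 months (12m) and at 6 weeks (6wk) there were 3 groups of 3 oocytes each: oocytes that reached metaphase II in vitro beside MSC in an overnight co-culture (MSC-IVM-MII; MSC is not written out in the sources), oocytes matured in vitro to metaphase II without MSC (IVM-MII), and germinal vesicle (GV) oocytes, which had not resumed meiosis. That makes 6 groups and 18 libraries. Every oocyte was lysed singly, its nucleus was spun down, and the library was made from the supernatant, per the labels' protocols. The labels name no animal, litter or culture for any oocyte, so each group counts as 1 sample. No test between groups was made, and an SD below is the spread over 3 oocytes, which says nothing of the spread between animals.

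As background, cytoplasmic mRNA decay usually starts with the shortening of the poly(A) tail by the CCR4-NOT deadenylases. TUT4 and TUT7 then add uridines to short tails, and uridylated RNA is a preferred substrate of DIS3L2, which digests from the tail end. At the other end DCP2 removes the cap, helped by its partner DCP1A and by the enhancers EDC3 and EDC4, after which XRN1 digests from the exposed end. In mouse oocytes most mRNA is stored during growth and much of it is cleared during meiotic maturation. Mouse oocytes that lack TUT4 and TUT7 fail to mature normally, and DCP1A and DCP2 protein accumulates during maturation from mRNAs that are dormant in the GV oocyte. Such activation commonly acts through cytoplasmic polyadenylation elements (CPE), short U-rich motifs near the end of the 3′UTR, which lengthen the tail. SMART-seq2 primes on the poly(A) tail, so a larger amount of an mRNA and a longer tail on the same amount cannot be told apart in these data. Levels below are CPM, counts scaled to the size of each library, and so are shares of a library and not amounts per oocyte.

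Dcp1a was the member with the most CPE letters close to its end. Its sites are shown because its CPM had the widest range among the metaphase II oocytes, from 19.4 to 390.7. On a log scale Edc4 ranged more widely in these oocytes, from 1.43 to 94.2 CPM. Dcp1a (ENSMUSG00000021962) lies on chromosome 14 from 30479535 to 30527063 on the plus strand of GRCm38. The motif letters searched were TTTTAT and TTTTAAT for the CPE, and AATAAA and ATTAAA for the polyadenylation signal, on the transcript strand only, in the last 150 bases of the 3′UTR in GENCODE M21. A single annotated transcript was scanned per gene, and other annotated ends were not. Dcp1a held 3 CPE matches in that window, at 140, 67 and 43 bases from the transcript end. The match nearest the end overlaps the polyadenylation signal at 39 bases. Of 18285 3′UTRs of mouse genes, 23.5% held at least 1 CPE match in that window and 80.3% held a polyadenylation signal. Capitals mark the motif in the Dcp1a and Xrn1 stretches, written with T for U.
Dcp1a CPE, chr14:30526916-30526937: ggtgtggaTTTTATaccatctg
Dcp1a CPE, chr14:30526989-30527010: atcctaaaTTTTATatgtttgc
Dcp1a CPE, chr14:30527013-30527035: atatatttTTTTAATaaaatttc
Dcp1a polyadenylation signal, chr14:30527017-30527038: atttttttAATAAAatttcaaa
Xrn1 CPE, chr9:96052908-96052929: taaatattTTTTATttttaagt

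Xrn1 had 1 CPE match in the last 150 bases of the transcript scanned, at 112 bases from the end, and its 3′UTR there was 218 bases long. No other member had a CPE match in that window. The Xrn1 transcript ends at 96053027, short of the gene end at 96057803, and listed lengths of Xrn1 reached 10256 bases. That of Edc4 ends at 105893208, short of its gene end at 105894908. Longer forms were not scanned. Over the whole 3′UTR the matches numbered 12 in the 7240 bases of Dcp2, 7 in the 3757 bases of Dcp1a, 5 in the 1346 bases of Tut7, 4 in the 347 bases of Dis3l2, 3 in Xrn1, 2 in the 630 bases of Tut4, 1 in the 4004 bases of Edc3 and 0 in the 346 bases of Edc4. A match of letters is a description and not a site of known function. The Pumilio letters TGTANATA, the motif of another maternal mRNA regulator, were in the last 150 bases of none of the 8 genes and of 5.99% of all 3′UTRs.

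**Figure D1:**
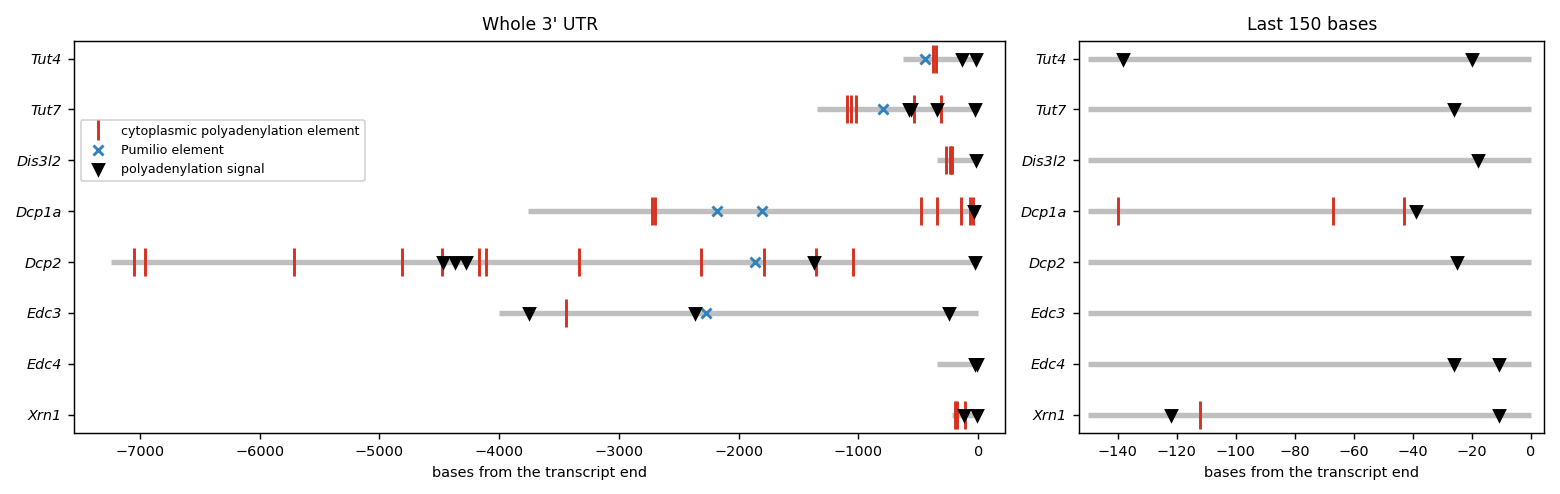
Position of motif letters in the 3′UTRs of the 8 genes, in bases from the annotated transcript end (left, the whole 3′UTR; right, the last 150 bases); grey bars are the 3′UTRs, red strokes CPE, blue crosses Pumilio elements and black triangles polyadenylation signals. A single annotated transcript is drawn per gene. In the right panel Dcp1a has 3 CPE matches, Xrn1 has 1 and the other genes have none.

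Library totals ran from 1914072 to 9193559 counts, and every library had counts for at least 10 of 12 oocyte marker genes. Markers of mesenchymal stromal cells summed to at most 7.33 CPM in co-cultured oocytes and to at most 18.04 CPM in GV oocytes, which had no co-culture. Blood and immune markers summed to at most 20.8 CPM. Libraries that stand apart from their group are set out here because values below rest on them. The title prefix Y01, whose meaning the labels do not give, is shared by MSC-IVM-MII 6wk oocyte 1, IVM-MII 6wk oocyte 1 and 2 GV oocytes. Those metaphase II oocytes had 643 and 1261 CPM of Mos, an oocyte kinase mRNA, where the other 10 metaphase II oocytes had at most 12.1 CPM and GV oocytes had 546 to 1973 CPM. Gdf9, an oocyte growth factor, likewise stood at 12660 and 17370 CPM in these oocytes, against at most 3397 CPM in the other metaphase II oocytes. In GV oocytes it was 1562 CPM in GV 12m oocyte 3 and 12080 to 18970 CPM in the rest. Zp3, a zona pellucida gene, went the other way, at 473 and 115 CPM, far under the 2067 to 20780 CPM of GV oocytes, so these libraries matched neither stage in all markers. The third library is GV 12m oocyte 3, in which 14 cumulus and granulosa cell markers summed to 1864 CPM, against sums of 61.3 to 243 CPM in the remaining GV libraries and 0 to 70.8 CPM in metaphase II oocytes. Its oocyte markers summed to 16440 CPM, against 34750 to 82350 CPM in the remaining GV libraries. It also gave the lowest GV values of Mos, Gdf9 and Zp3. Libraries also differed in how long mRNAs fared against short ones. The median log2(CPM + 1) of genes of at least 5000 bases, less that of genes of at most 1500 bases, ran from -2.88 to 1.37 and was highest in IVM-MII 6wk oocyte 1, MSC-IVM-MII 12m oocyte 2 and MSC-IVM-MII 6wk oocyte 1. Between groups, genes are compared by the difference of mean log2(CPM + 1), which understates the change of weakly expressed genes, and a gene is called higher or lower where this reaches 1 or -1.

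Tut7 and Dcp2 were higher in metaphase II than in GV oocytes in every comparison, Dcp1a had higher means in metaphase II oocytes with a wide spread, and Tut4, Dis3l2, Edc3 and Xrn1 had few counts in most oocytes. The median difference of the 8 genes, beside that of all genes kept, was -0.35 beside -0.60 for MSC-IVM-MII minus GV at 12m, 0.23 beside -0.52 for IVM-MII minus GV at 12m, 1.03 beside -0.29 for MSC-IVM-MII minus GV at 6wk, and 0.53 beside -0.52 for IVM-MII minus GV at 6wk. At 12m, 3 of the 8 were higher and 2 lower in MSC-IVM-MII than in GV oocytes, where 16.7% of all genes were higher and 41.7% lower. In IVM-MII 12m oocytes 2 were higher and 1 lower than in GV, against 16.1% and 39.0% of all genes. At 6wk, 4 were higher and 2 lower in MSC-IVM-MII than in GV, against 21.4% and 35.2% of all genes. In IVM-MII 6wk oocytes 3 were higher and 0 lower, against 16.7% and 39.3% of all genes. Without IVM-MII 6wk oocyte 1 these counts were 3 and 1, with a median of -0.35 beside -0.74 for all genes. Without GV 12m oocyte 3 the counts were 3 and 1 for MSC-IVM-MII minus GV at 12m, and 3 and 0 for IVM-MII minus GV. Both kinds of metaphase II oocyte are set against the same GV oocytes, so these comparisons are not independent.

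**Figure D2:**
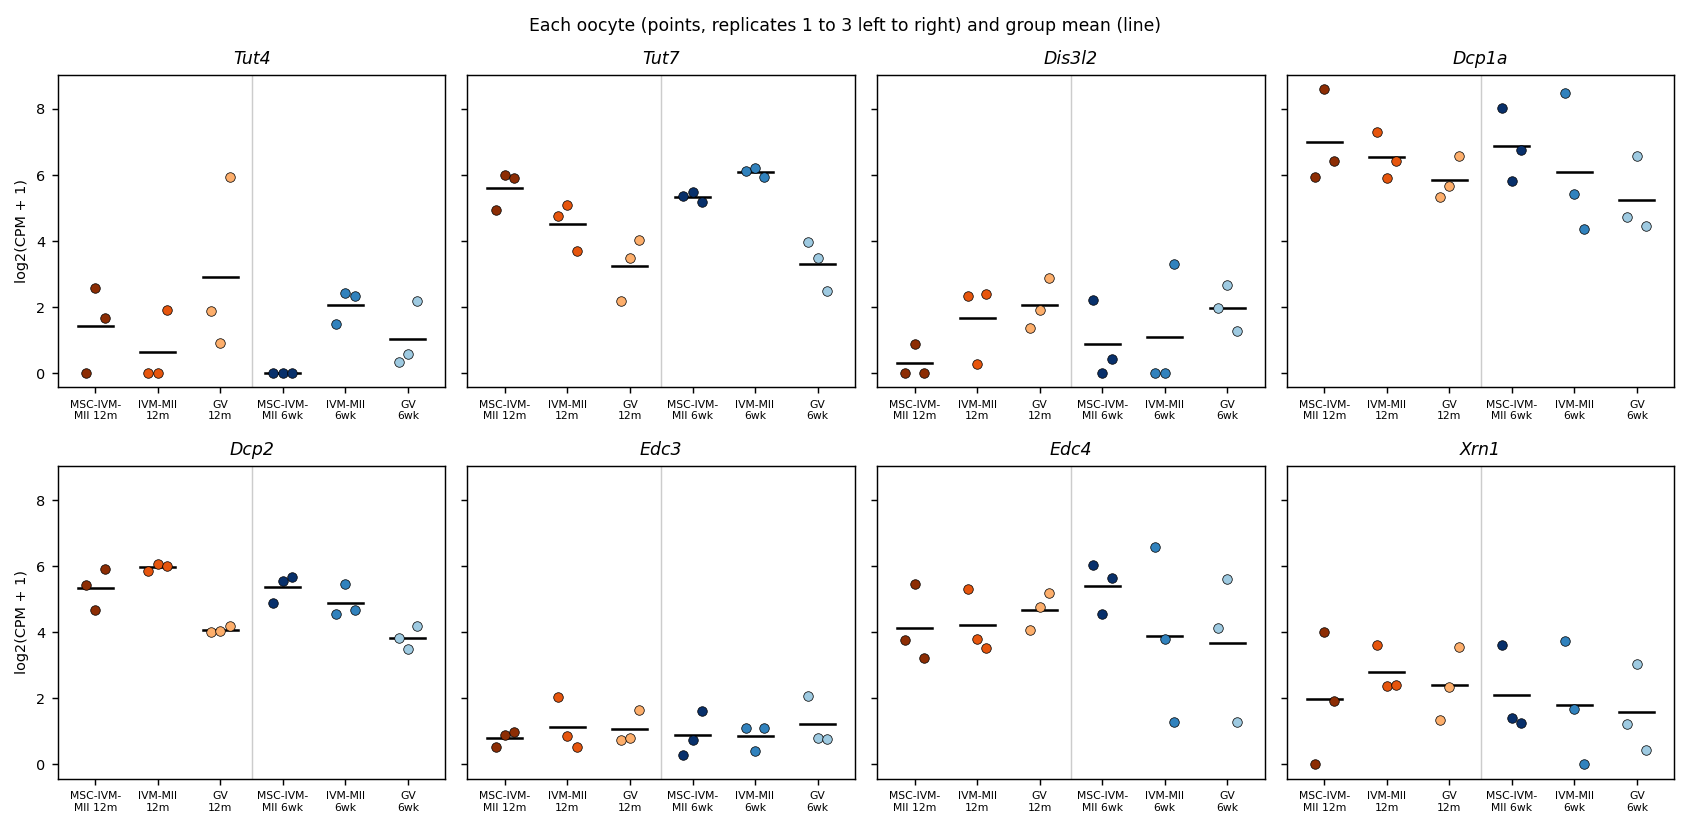
Level of each gene in each oocyte as log2(CPM + 1); points are oocytes, lines group means, and groups run from MSC-IVM-MII through IVM-MII to GV at 12m and then at 6wk. Tut7 and Dcp2 sit higher in metaphase II than in GV groups, and Tut4 has 1 high point, in GV 12m.

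Tut7 (ENSMUSG00000035248, chromosome 13, 59771561 to 59823147, minus strand) encodes the uridylyltransferase that in the mouse acts together with TUT4 on short-tailed mRNA. At 12m it had 29.4, 63.5 and 59.0 CPM in MSC-IVM-MII oocytes, 25.8, 33.1 and 12.1 CPM in IVM-MII oocytes, and 3.56, 10.3 and 15.4 CPM in GV oocytes. At 6wk it had 40.4, 43.5 and 35.2 CPM in MSC-IVM-MII oocytes, 68.1, 73.3 and 60.5 CPM in IVM-MII oocytes, and 14.5, 10.2 and 4.61 CPM in GV oocytes. Every metaphase II oocyte was therefore above every GV oocyte of its age, except that IVM-MII 12m oocyte 3 was below GV 12m oocyte 3. Summed over 3 oocytes, the GV 6wk value rests on 109 counts (exact Poisson 95% interval 89.5 to 131.5) and the IVM-MII 6wk value on 750 counts (697.3 to 805.7).

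The largest maturation difference among the members was that of Tut7 at 6wk without MSC: 67.3 ± 6.42 CPM in IVM-MII oocytes and 9.78 ± 4.97 CPM in GV oocytes (SD, n = 3 each), a difference of 2.78 and a 6.88-fold ratio of means. Of all genes kept, 99.5% had a smaller difference, and 9.59% had every IVM-MII oocyte above every GV oocyte. With co-culture at 6wk the difference from GV was 2.03, with 39.7 ± 4.16 CPM in MSC-IVM-MII oocytes. In 12m oocytes the differences were 2.37 for MSC-IVM-MII minus GV, with 50.6 ± 18.5 CPM against 9.78 ± 5.96 CPM, and 1.27 for IVM-MII minus GV, with 23.7 ± 10.6 CPM. The last of these was the least stable: it was 0.54 within shared title prefixes and 0.81 in TPM, and it ran from 0.75 to 1.67 with 1 oocyte left out. The other 3 stayed above 1.5 under every alternative tried.

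Co-culture and age went with unequal Tut7 levels among metaphase II oocytes only as far as these values go. At 12m, co-cultured oocytes had 50.6 CPM on average and IVM-MII oocytes 23.7 CPM, a difference of 1.10, and MSC-IVM-MII oocyte 1 (29.4 CPM) lay below IVM-MII oocyte 2 (33.1 CPM). At 6wk the difference ran the other way, at -0.75, and every co-cultured oocyte was below every IVM-MII oocyte, as held for 1.51% of all genes kept. IVM-MII oocytes of 12m were all below those of 6wk, with 23.7 against 67.3 CPM on average, a difference of -1.57; 2.37% of all genes kept separated this way. The age differences were 0.27 in MSC-IVM-MII oocytes and -0.07 in GV oocytes, where the means of 12m and 6wk were both 9.78 CPM and the groups overlapped. Title prefixes are not shared between ages, so age and whatever the prefixes stand for cannot be told apart. Exons of Tut7 share 1299 bases with the antisense gene Etohd2, which had at most 3.19 CPM in any oocyte, and 228 bases with Gm49354 on the same strand, a gene not among those listed. The labels do not state whether the reads carry strand.

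Tut4 (ENSMUSG00000034610, chromosome 4, 108459426 to 108559421, plus strand), the other uridylyltransferase, was at or below 5.00 CPM in 17 of 18 oocytes. The exception was GV 12m oocyte 3, with 395 counts and 59.8 CPM. In the other 12m oocytes it had 0, 5.00 and 2.18 CPM in MSC-IVM-MII, 0, 0 and 2.76 CPM in IVM-MII, and 2.67 and 0.880 CPM in GV. The high oocyte is the one with the high cumulus and granulosa marker sum; 12 of 14 of these markers were detected there, with Gja1 at 674 CPM, and their part in the Tut4 value was not tested. Leaving it out moved the difference for IVM-MII minus GV at 12m to -0.76, where it was -2.27 with all oocytes, and that for 12m minus 6wk in GV oocytes to 0.36, where it was 1.87. For MSC-IVM-MII minus GV at 12m it turned the sign, to 0.02 where it had been -1.49.

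At 6wk the Tut4 counts were 0, 0 and 0 in MSC-IVM-MII oocytes, 8, 14 and 14 in IVM-MII oocytes, and 1, 2 and 10 in GV oocytes. A count of 0 allows up to 3 counts per library, or 0.891 CPM on average over these 3 libraries, so Tut4 was at least 3.8-fold lower in MSC-IVM-MII than in IVM-MII oocytes, whose mean was 3.38 CPM. Against GV oocytes no separation was detectable at this depth: GV oocytes 1 and 2, at 0.269 and 0.487 CPM, lay under that floor, and the bound of 1.61-fold lower than the GV mean of 1.43 CPM rests on GV oocyte 3. MSC-IVM-MII 12m oocytes, at 2.39 CPM, were at least 2.69-fold higher than those of 6wk on average, with 1 of the 3 also at 0. These bounds cover counting error only, since without molecular identifiers several reads may come from 1 molecule. IVM-MII 6wk oocytes had 36 counts in all (25.2 to 49.8) and GV 6wk oocytes 13 (6.9 to 22.2), a difference of 1.04 with overlapping oocytes.

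Dis3l2 (ENSMUSG00000053333, chromosome 1, 86703808 to 87050095, plus strand), which encodes the exonuclease for uridylated RNA, was low throughout, at 0 counts in 5 oocytes and at most 8.85 CPM. At 12m it had 0, 0.833 and 0 CPM in MSC-IVM-MII oocytes, 4.00, 0.200 and 4.25 CPM in IVM-MII oocytes, and 1.56, 2.77 and 6.36 CPM in GV oocytes. All 3 co-cultured oocytes were below all 3 GV oocytes, as held for 28.5% of genes kept, and the difference was -1.76. MSC-IVM-MII oocyte 2 held 6 counts and GV oocyte 1 held 7, and MSC-IVM-MII oocyte 1 was the smallest library. The separation of single oocytes therefore lies near counting error. The sums were 6 counts (2.2 to 13.1) in MSC-IVM-MII, 54 (40.6 to 70.5) in IVM-MII and 71 (55.5 to 89.6) in GV oocytes of 12m. Against IVM-MII the difference was -1.37, with overlap, because IVM-MII oocyte 2 held 1 count. At 6wk the values were 3.59, 0 and 0.345 CPM in MSC-IVM-MII, 0, 0 and 8.85 CPM in IVM-MII, and 2.96, 5.35 and 1.42 CPM in GV oocytes. Those groups overlapped, and the differences from GV were -1.10 with co-culture and -0.88 without.

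Dcp2 (ENSMUSG00000024472, chromosome 18, 44380502 to 44424969, plus strand) encodes the decapping enzyme itself. At 12m it had 42.4, 24.7 and 59.6 CPM in MSC-IVM-MII oocytes, 57.1, 66.3 and 63.3 CPM in IVM-MII oocytes, and 15.1, 15.5 and 17.3 CPM in GV oocytes. At 6wk it had 28.5, 46.1 and 50.1 CPM in MSC-IVM-MII oocytes, 22.3, 43.5 and 24.5 CPM in IVM-MII oocytes, and 13.2, 10.2 and 17.4 CPM in GV oocytes. Every metaphase II oocyte, at either age and with or without MSC, was above all 6 GV oocytes. For all genes kept, shares were counted only for each metaphase II group against the GV oocytes of the same age. At 12m, 10.9% had every MSC-IVM-MII oocyte above every GV oocyte, and 11.3% had every IVM-MII oocyte above. At 6wk the shares were 14.2% for MSC-IVM-MII and 9.59% for IVM-MII. The share of genes with every metaphase II oocyte above all 6 GV oocytes was not counted.

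At 12m, Dcp2 averaged 62.2 ± 4.73 CPM in IVM-MII oocytes and 15.96 ± 1.15 CPM in GV oocytes (SD, n = 3 each), a difference of 1.90 that ran from 1.85 to 1.96 with 1 oocyte left out and was 1.15 in TPM. The other maturation differences were 1.27 for MSC-IVM-MII at 12m, 1.53 for MSC-IVM-MII at 6wk and 1.06 for IVM-MII at 6wk. These 3 were not past 1 in every setting: MSC-IVM-MII at 12m reached 0.98 with 1 oocyte left out, MSC-IVM-MII at 6wk was 0.93 in TPM, and IVM-MII at 6wk was 0.88 within title prefixes and 0.77 at the lowest with 1 oocyte left out. IVM-MII oocytes of 12m were all above those of 6wk, 62.2 against 30.1 ± 11.6 CPM, a difference of 1.08, as held for 6.24% of genes kept; DESeq2 size factors gave 0.94 and TPM gave 0.12. Co-culture went with differences of -0.63 at 12m and 0.47 at 6wk, and the oocytes overlapped at both ages. Age differences were -0.02 in MSC-IVM-MII and 0.24 in GV oocytes, also with overlap.

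Per-length levels of Dcp2 depend on the transcript assumed. The annotation holds a transcript of 8616 bases in 11 exons and another of 398 bases in 2 exons, and the gene length listed beside the deposited values ran from 511.84 to 1231.02 bases over the oocytes. On the TPM scale, as the authors deposited it, Dcp2 had the highest mean level of the 8 genes in all 6 groups, at 30.1 to 82.9 TPM. Per kilobase of its 8616-base transcript it held ranks 2 to 4, at 1.6 to 7.22 CPM per kilobase, and Dcp1a was first in all 6 groups, at 8.40 to 32.0 CPM per kilobase. The order below Dcp1a differed between groups. In IVM-MII 6wk oocytes Tut7 (11.5 ± 1.09 CPM per kilobase) was second and did not overlap Dcp2 (3.50 ± 1.35), while Edc4 (7.80 ± 10.9) overlapped both. In GV 6wk oocytes Tut7 (1.67 ± 0.846), Dcp2 (1.6 ± 0.418) and Edc4 (4.77 ± 5.16) overlapped. Edc3 had the lowest or the next to lowest mean level in every group on both scales.

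Dcp1a, the partner that activates DCP2, had the highest mean CPM of the members in every group and a wide spread within groups. At 12m it had 60.7, 390.7 and 84.3 CPM in MSC-IVM-MII oocytes, 157, 58.9 and 84.7 CPM in IVM-MII oocytes, and 39.0, 50.04 and 93.9 CPM in GV oocytes. At 6wk it had 260.1, 55.2 and 108 CPM in MSC-IVM-MII oocytes, 354, 41.6 and 19.4 CPM in IVM-MII oocytes, and 25.3, 94.4 and 20.9 CPM in GV oocytes. Single oocytes carried most of each metaphase II mean: the highest were the Y01 oocytes of 6wk and MSC-IVM-MII 12m oocyte 2. The groups overlapped in all 4 maturation comparisons. The differences from GV were 1.14 for MSC-IVM-MII and 0.69 for IVM-MII at 12m, and 1.62 and 0.83 at 6wk. That of MSC-IVM-MII at 12m was 0.61 within title prefixes and ran from 0.33 to 1.66 with 1 oocyte left out. Without the Y01 oocytes those of 6wk were 1.04 for MSC-IVM-MII and -0.37 for IVM-MII.

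Edc4 (ENSMUSG00000036270, chromosome 8, 105880881 to 105894908, plus strand) encodes the large scaffold that joins DCP2 to DCP1A. At 12m it had 12.5, 42.8 and 8.31 CPM in MSC-IVM-MII oocytes, 38.4, 13.02 and 10.4 CPM in IVM-MII oocytes, and 15.8, 26.3 and 35.9 CPM in GV oocytes. At 6wk it had 64.4, 22.4 and 48.7 CPM in MSC-IVM-MII oocytes, 94.2, 13.04 and 1.43 CPM in IVM-MII oocytes, and 16.7, 48.4 and 1.42 CPM in GV oocytes. All groups overlapped, and the differences of at least 1 in size were 1.72 for MSC-IVM-MII minus GV at 6wk, 1.52 for MSC-IVM-MII minus IVM-MII at 6wk, -1.26 for 12m minus 6wk in MSC-IVM-MII and 1.00 for 12m minus 6wk in GV oocytes. Each of these fell short of 1, or for GV turned to -0.20, with 1 oocyte left out. Edc4 shares 458 exon bases with Nrn1l on the same strand, which had 14.2 to 319 CPM, so reads in that stretch may have been split between them.

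Xrn1 (ENSMUSG00000032410, chromosome 9, 95954760 to 96057803, plus strand), the exonuclease that acts after decapping, had 0 to 15 CPM. At 12m it had 0, 15 and 2.77 CPM in MSC-IVM-MII oocytes, 11.3, 4.21 and 4.25 CPM in IVM-MII oocytes, and 1.56, 4.02 and 10.8 CPM in GV oocytes. At 6wk it had 11.2, 1.67 and 1.38 CPM in MSC-IVM-MII oocytes, 12.4, 2.17 and 0 CPM in IVM-MII oocytes, and 1.34, 7.30 and 0.355 CPM in GV oocytes. None of the 9 comparisons reached a difference of 1 in size, and the largest was 0.99 for 12m minus 6wk in IVM-MII oocytes. Edc3 (ENSMUSG00000038957, chromosome 9, 57708540 to 57752499, plus strand), an enhancer of decapping, had 1 to 26 counts per oocyte and at most 3.23 CPM. Its largest difference was -0.36, for IVM-MII minus GV at 6wk, and its 1284 exon bases shared with the opposite-strand gene Clk3, at 37.0 to 217 CPM, leave its few reads uncertain.

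Dcp1a, Edc4 and Xrn1 were high in the same oocytes. Over the 18 oocytes, which share groups and depth, Pearson's r of log2(CPM + 1) was 0.80 (Spearman's rho 0.75) for Dcp1a and Edc4 and 0.83 (0.81) for Dcp1a and Xrn1. Among the 12 metaphase II oocytes r was 0.87 (0.71) for Dcp1a and Edc4 and 0.86 (0.79) for Dcp1a and Xrn1, and without the Y01 oocytes it was 0.80 (0.56) and 0.81 (0.65). Dcp1a also moved with the level of long relative to short mRNAs: r was 0.95 (0.95) over the 12 metaphase II oocytes and 0.90 (0.77) over the 6 GV oocytes. With the same measure, among metaphase II oocytes, Edc4 had r = 0.81 (0.73), Xrn1 0.78 (0.78), Tut7 0.09 (0.03) and Dcp2 -0.46 (-0.23). The principal transcript of Dcp1a is 5576 bases and that of Xrn1 5499 bases, while that of Tut7 is 5869 bases. For Xrn1 the length listed beside the deposited values ran from 631.66 to 10256 bases over the oocytes. The part of transcript length in these values was not tested.

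**Figure D3:**
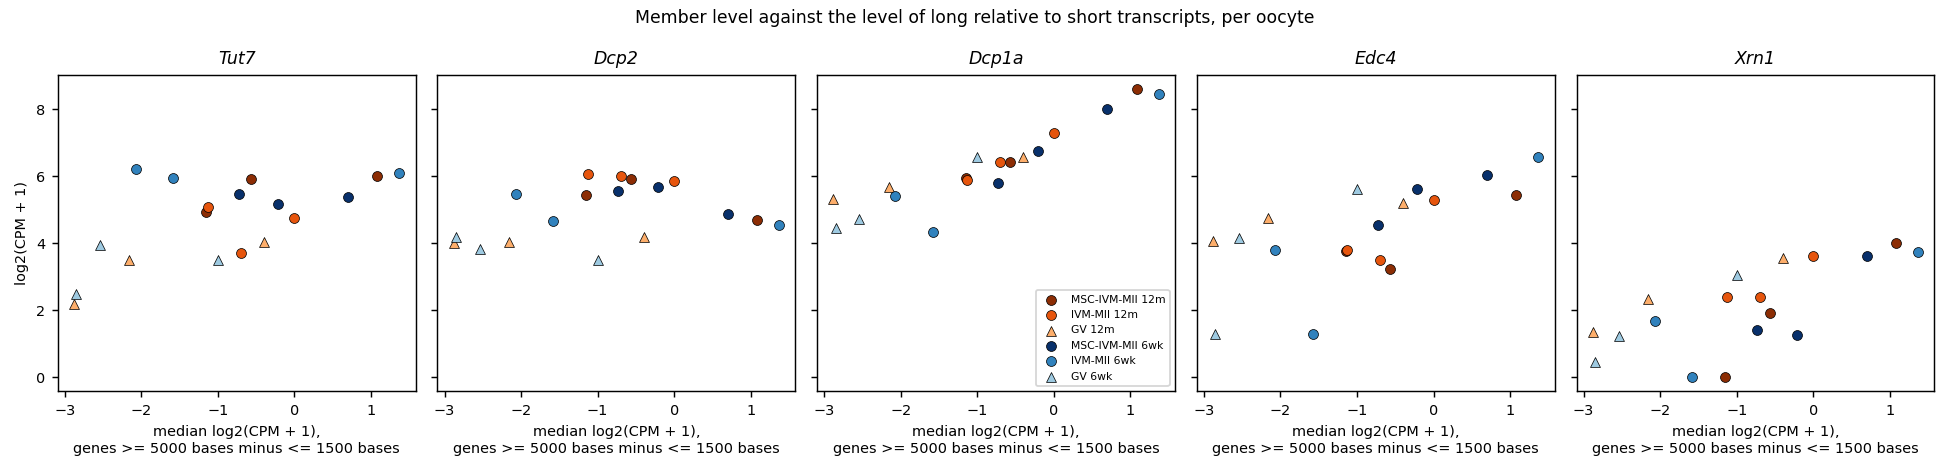
Level of 5 genes in each oocyte, as log2(CPM + 1), against the median log2(CPM + 1) of genes of at least 5000 bases minus that of genes of at most 1500 bases; circles are metaphase II and triangles GV oocytes, coloured by group. Dcp1a climbs along the x axis (r = 0.93 over 18 oocytes), while Dcp2 lies higher in every metaphase II than in every GV oocyte and Tut7 in all but 1 of the metaphase II oocytes.

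A search for like genes covered 7387 genes with a mean of at least 5 CPM over the 18 oocytes. It left out genes without a symbol, predicted Gm genes, Riken and RP clones, and pseudogenes. Within it, the genes most like each member by Pearson's r of log2(CPM + 1) were Srsf10 (0.946) for Tut7, and Gtf2a2 (0.914) and Snrpf (0.907) for Dcp2. They were Usp7 (0.951) and Son (0.950) for Dcp1a, Mcm3ap (0.906) and Pacsin2 (0.890) for Edc4, and Mlxip (0.922) and Rcc2 (0.909) for Xrn1. Edc3, Tut4 and Dis3l2 were left out of this search as too weakly expressed.

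Comparing co-cultured with IVM-MII oocytes, 1 of the 8 genes was higher (Tut7) and 1 lower (Dis3l2) at 12m, against 10.3% and 15.2% of all genes, and 1 was higher (Edc4) and 1 lower (Tut4) at 6wk, against 16.2% and 5.22%. For 12m minus 6wk, 1 was higher (Tut4) and 1 lower (Edc4) in MSC-IVM-MII oocytes, against 7.73% and 15.2% of all genes. In IVM-MII oocytes 1 was higher (Dcp2) and 2 lower (Tut4 and Tut7), against 18.1% and 9.08%. In GV oocytes 2 were higher (Tut4 and Edc4) and 0 lower, against 9.46% and 4.28%, and without GV 12m oocyte 3 these counts were 0 and 0. The median differences of the 8 genes lay between -0.20 and 0.43 in these 5 comparisons. Counting oocytes instead, 0 members had every co-cultured oocyte above every IVM-MII oocyte at 12m (2.63% of all genes) and 0 had every one below (3.99%). At 6wk 0 were above (3.86%) and Tut4 and Tut7 were below (1.51%). Between ages, 0 members separated upward (2.94%) or downward (4.85%) in MSC-IVM-MII oocytes, and 0 upward (3.67%) or downward (3.51%) in GV oocytes. Against GV at 6wk, Tut4 alone was listed below every GV oocyte in every MSC-IVM-MII oocyte (28.7%), a matter of 0 counts against 1, 2 and 10, which this depth does not resolve. No member was so placed in IVM-MII (29.2%).

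**Figure D4:**
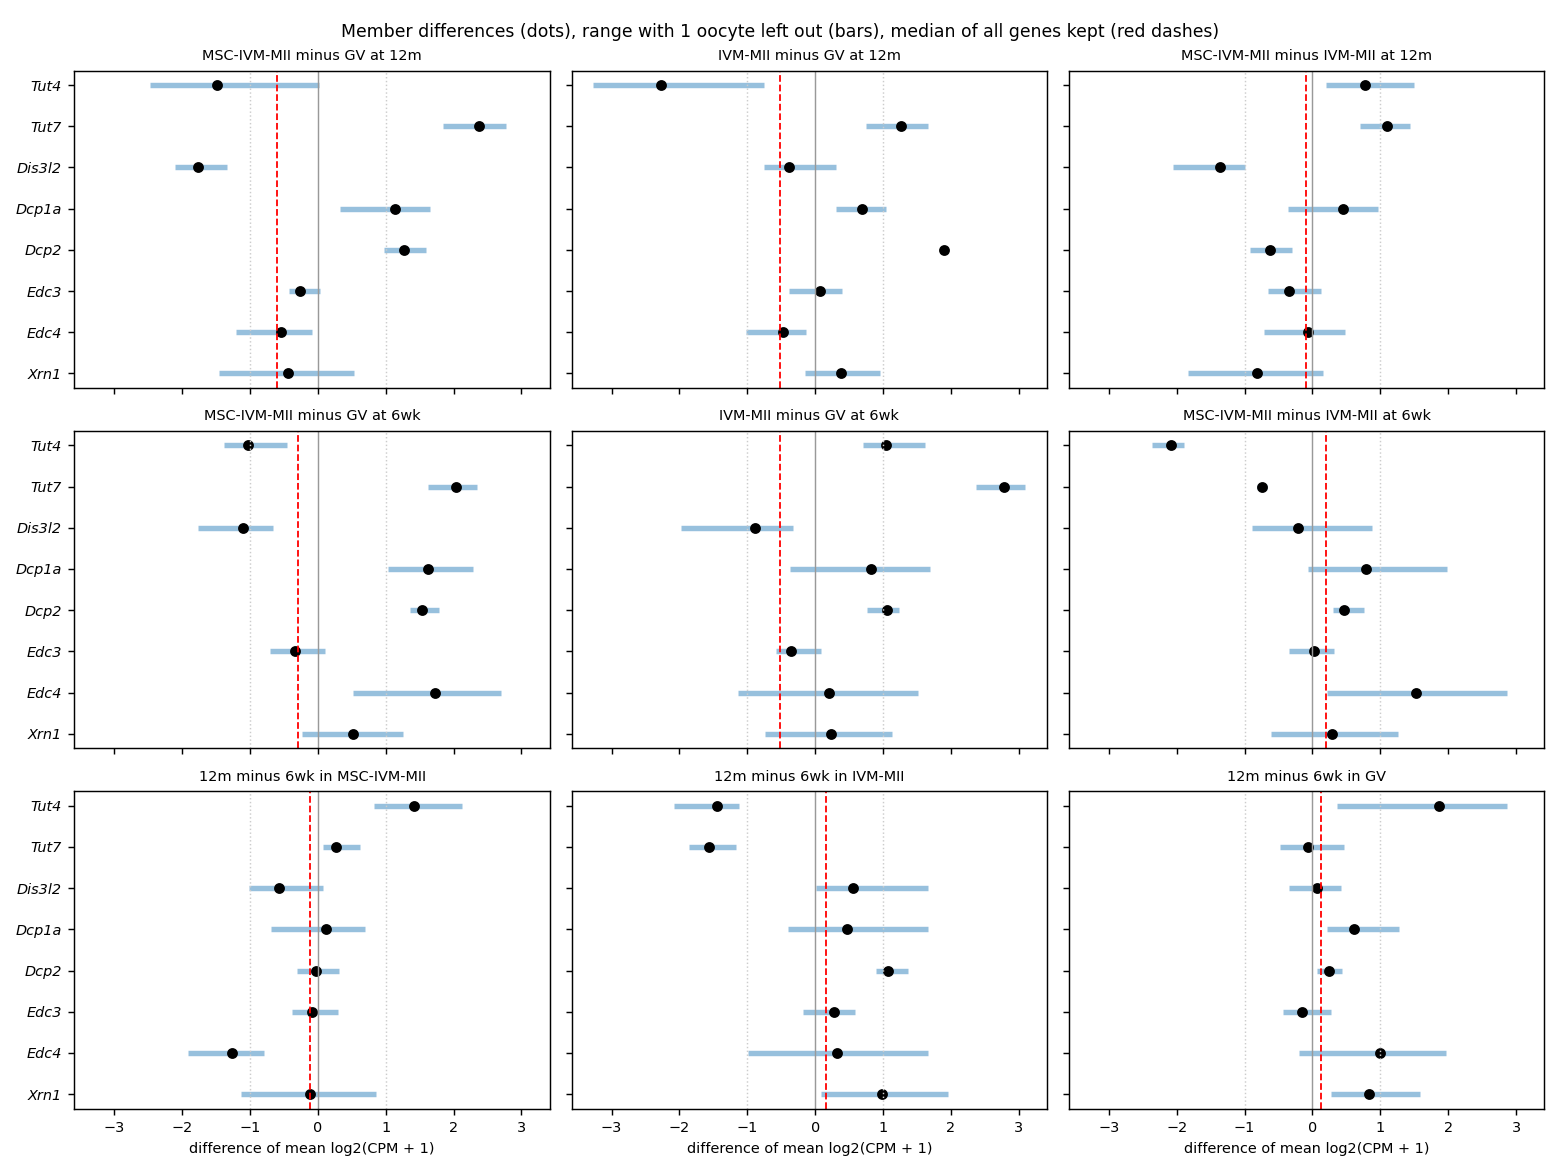
Differences of mean log2(CPM + 1) for the 8 genes in 9 comparisons; dots use all oocytes, blue bars span the values with each oocyte left out in turn, the red dashed line is the median of all genes kept and dotted lines mark 1 and -1. Tut7 and Dcp2 lie to the right of 0 in all 4 maturation panels, bars included, and the bar of Dcp2 for IVM-MII minus GV at 12m is short, from 1.85 to 1.96.

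The rest of the decay pathway was mixed between metaphase II and GV oocytes. The counts of IVM-MII minus GV that follow stand beside shares of all genes of 16.1% higher and 39.0% lower at 12m, and 16.7% higher and 39.3% lower at 6wk. In IVM-MII set against GV, 3 of the 20 deadenylases and adaptors kept were higher and 4 lower at 12m, and 10 higher and 4 lower at 6wk. Without GV 12m oocyte 3 the 12m counts were 6 and 3, and without IVM-MII 6wk oocyte 1 those of 6wk were 6 and 6. Btg4, the adaptor that brings CCR4-NOT to maternal mRNA, averaged 7690 CPM in IVM-MII and 1610 CPM in GV oocytes at 12m, with ranges of 6340 to 10400 and 1030 to 1920 CPM, and 6160 ± 453 against 1280 ± 540 CPM at 6wk (SD, n = 3 each). Cnot4, a ubiquitin ligase of CCR4-NOT, had 280.0 ± 62.7 CPM in IVM-MII and 45.6 ± 18.3 CPM in GV oocytes at 12m, and 225 ± 66.5 against 33.8 ± 35.7 CPM at 6wk. Cnot7, a catalytic deadenylase, was 1.69 higher at 6wk, with 427 ± 98.3 CPM in IVM-MII oocytes, against 120.0 to 136 CPM over the GV oocytes. The oocytes of the groups did not overlap for these 3 genes. Btg1, an anti-proliferative adaptor, had 3.39 CPM in IVM-MII and 35.2 CPM in GV oocytes at 12m, with 91.5 CPM in the highest GV oocyte. At 6wk it went the other way, with 22.3 CPM in IVM-MII and 5.30 CPM in GV oocytes, a difference of 1.46.

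Decapping cofactors other than the members were lower about as often as all genes. Of 20 kept, 1 was higher and 9 lower at 12m (IVM-MII minus GV), and 3 higher and 9 lower at 6wk, with medians of -0.92 and -0.95 where the medians of all genes were -0.52. Without GV 12m oocyte 3 the 12m counts were 2 and 7, and without IVM-MII 6wk oocyte 1 those of 6wk were 2 and 11. Lsm4, a subunit of the LSM ring that binds shortened tails, had 0 to 10.8 CPM in IVM-MII and 77.4 to 122 CPM in GV oocytes at 12m, and 1.97 ± 3.41 against 70.3 ± 31.2 CPM at 6wk. Of the 7 ring subunits, Lsm1 to Lsm7, picked out after their values were seen, 5 were lower at each age; Lsm1 differed by 0.47 at 12m and 0.18 at 6wk. Dxo, an enzyme that removes defective caps, had 0.601 CPM in IVM-MII and 43.7 CPM in GV oocytes at 12m, and 1.04 against 46.4 CPM at 6wk. LSM mRNAs are short, and the median difference of genes of at most 1500 bases was -1.05 at 12m and -1.14 at 6wk; its part in these values was not tested.

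Exonucleases, the exosome and its SKI helper complex gave 4 higher and 6 lower of 21 at 12m, and 5 and 8 at 6wk. The exosome ring subunit Exosc5 had 2.69 CPM in IVM-MII and 96.1 CPM in GV oocytes at 12m, and 5.19 against 82.5 CPM at 6wk. Exosc4, another subunit of the ring, had 28.8 against 189 CPM at 12m and 10.3 against 183 CPM at 6wk. The exonuclease Eri3 had 2.64 against 33.5 CPM and 4.19 against 22.1 CPM. In the list made for terminal nucleotidyltransferases and LIN28, 3 of 10 genes kept were higher and 3 lower at 12m, and 5 and 3 at 6wk. Without IVM-MII 6wk oocyte 1 the counts of 6wk were 2 and 4. Tent5c, a poly(A) polymerase, had 94.8 ± 19.3 CPM in IVM-MII and 536 ± 147 CPM in GV oocytes at 12m, and 112 ± 139 against 724 ± 218 CPM at 6wk, and Tent5b differed by -1.91 and -3.65. Tent2, a cytoplasmic poly(A) polymerase, was 1.88 higher at 12m. Zcchc3 is in the list, and in its counts, but is neither a nucleotidyltransferase nor a LIN28 gene. It was 1.28 higher at 12m and 2.11 higher at 6wk. In nonsense-mediated decay, 2 of 10 genes were higher and 3 lower at both ages; Upf3b differed by 1.4 and 2.02 and Upf2 by 1.85 at 12m. Of 16 AU-rich element and microRNA decay factors, 0 were higher and 4 lower at 12m, among them Ago2 (-1.07), and 2 higher and 3 lower at 6wk, with Ythdf3 at 1.47. Without GV 12m oocyte 3 the 12m counts of this last list were 3 higher and 2 lower. They were then 4 and 3 in nonsense-mediated decay, 6 and 8 among exonucleases, and 5 and 2 among nucleotidyltransferases. Of all genes, 18.4% were then higher and 38.2% lower.

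**Figure D5:**
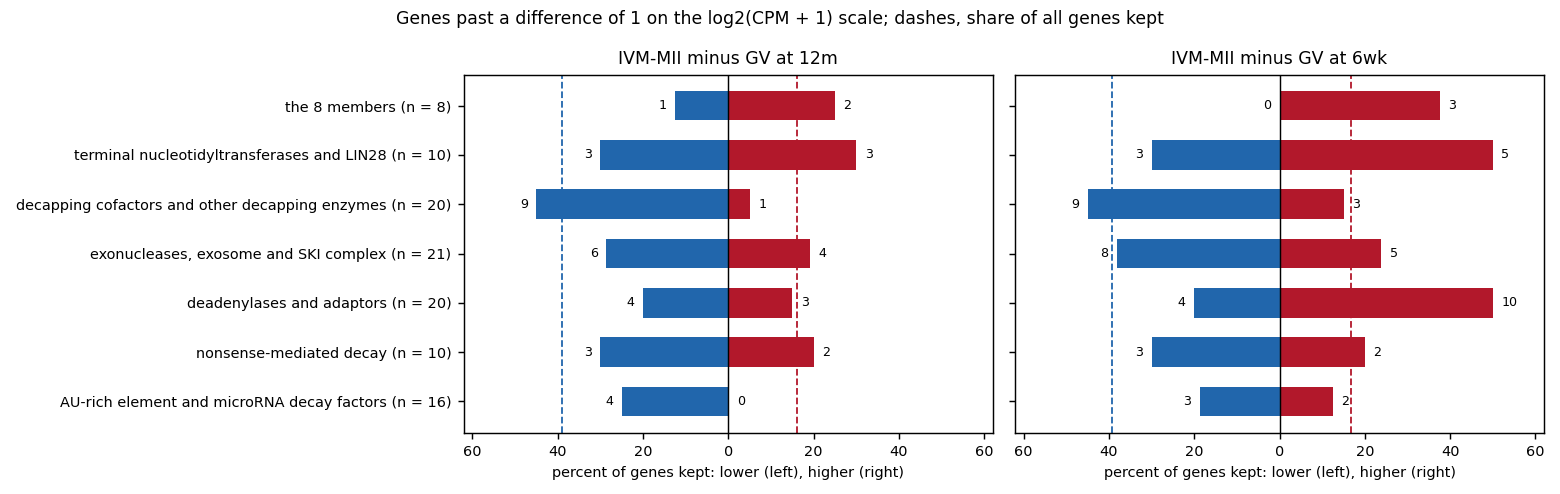
Percent of the genes kept in each list that were higher (red, right) or lower (blue, left) by at least 1 for IVM-MII minus GV, at 12m (left panel) and at 6wk (right panel), with counts beside the bars and the share of all genes as dashed lines. The decapping cofactors show 9 lower genes at both ages, and the deadenylases show 3 higher genes at 12m and 10 at 6wk.

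Between the ages, 8 of 20 genes in the deadenylase list were higher and 0 lower in GV oocytes at 12m than at 6wk. Of all genes, 9.46% were higher and 4.28% lower. Among the deadenylase genes Cnot1, the CCR4-NOT scaffold, had 22.6 ± 21.9 CPM at 12m and 6.48 ± 8.96 CPM at 6wk, and Tob2, a deadenylase adaptor, 26.0 ± 12.6 against 11.4 ± 13.5 CPM (SD, n = 3 each). Both overlapped. Without GV 12m oocyte 3 the deadenylase counts were 4 higher and 0 lower of 20, where 7.65% of all genes were higher and 7.16% lower. In the AU-rich element and microRNA list 5 of 16 were higher and 0 lower, and 3 and 1 without that oocyte. In the decapping list the repressor Patl2 had 31.1 ± 11.5 CPM at 12m and 75.5 ± 30.7 CPM at 6wk, and among the nucleotidyltransferases Tent4a differed by 1.36 and Mtpap by -1.19. The nucleotidyltransferase list gave 2 higher and 1 lower of 10. Without GV 12m oocyte 3 it gave 0 and 2, so Tent4a then fell short of 1. The oocytes of the ages overlapped for Tent4a and Mtpap and did not for Patl2.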

How the data were processed

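Per the file headers, each oocyte's table gives expected counts, TPM and FPKM by Ensembl gene, with a length for the gene. Builds GRCm38.p5 and mm10 stand in the submitters' processing notes, with Cufflinks, TopHat2 2.1.1, Trim Galore 0.4.5 and, for quality control, FastQC 0.11.8. Which program gave the expected counts, and with which annotation, is not given in the sources used here. The expected counts that the authors deposited were rounded and filtered with filterByExpr, which left 12037 genes. Counts were then scaled over all 18 libraries with edgeR's TMM (version 4.0.16, under R 4.3.3), using the genes kept. Values are log2(CPM + 1), with a pseudocount of 1. TPM, as deposited, was an alternative unit, as were DESeq2 1.42.0 size factors; FPKM, as deposited, was not used. Symbols came from GENCODE M21 and matched 46488 of 47069 identifiers. Groups followed the labels, and replicate numbers name oocytes only. With each group as 1 sample, groups are described by size and not tested. Intervals are exact Poisson 95% intervals of summed counts.

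The members, gene lists and comparisons were chosen with earlier results of these data known. Named list genes are up to 3 per list with the largest difference, past 1 in size and with at least 20 CPM in the higher group, for IVM-MII minus GV at each age and for 12m minus 6wk in GV; Mos and the LSM ring were picked after their values were seen. For likeness, the 2 genes with the highest r per member are named, except 1 gene that is not reported here. Of 6 pathway lists all but 1 symbol matched. Only the difference of mean log2(CPM + 1) was run on simulated counts with known changes. Library sizes were held fixed there, so the filter and TMM were not tested. No 2 libraries agreed within sampling noise (lowest chi-square per degree of freedom 24.0). Figures were drawn with Matplotlib 3.10.9, and Python 3.11.15 with SciPy 1.17.1, pandas 2.3.3 and NumPy 2.4.6 was used elsewhere. Alternatives covered the scaling, unit, pseudocount, filter, size limit, title prefixes and each oocyte left out.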

Additional observations from a re-analysis of the deposited data

Results flagged for a closer look

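Of 48 pairs of differences looked at (8 genes in 6 pairs of comparisons), 2 went opposite ways in the oocytes of both ages; the difference between the ages was not tested in either. For Tut4, IVM-MII minus GV was -2.27 at 12m and 1.04 at 6wk, so that the 12m value less the 6wk value was -3.31; every IVM-MII oocyte of 12m lay below the GV mean of its age and every IVM-MII oocyte of 6wk lay above it. The 12m value rests on GV 12m oocyte 3, and its counts outside that oocyte were at most 36 per library. For Tut7, MSC-IVM-MII minus IVM-MII was 1.10 at 12m and -0.75 at 6wk, a gap of 1.85; each co-cultured oocyte of 12m was above the IVM-MII mean of its age, and each of 6wk was below it. Within shared title prefixes the Tut7 values were 1.13 and -0.75.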

How the results depend on the processing

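Of 28 differences of at least 1 in size, 6 stayed past 1 in every alternative that was run: Tut7 in MSC-IVM-MII minus GV at both ages, in IVM-MII minus GV at 6wk and in 12m minus 6wk in IVM-MII, Dcp2 in IVM-MII minus GV at 12m, and Dcp1a in MSC-IVM-MII minus GV at 6wk. Of the 429 alternative values of the 28, 361 stayed past 1 and 2 changed sign: Tut4 in MSC-IVM-MII minus GV at 12m, to 0.02 without GV 12m oocyte 3 (range with 1 oocyte left out -2.48 to 0.02), and Edc4 in 12m minus 6wk in GV, to -0.20 without GV 6wk oocyte 3 (range -0.20 to 1.97). DESeq2 size factors moved the median of all genes to -0.68 for IVM-MII minus GV at 12m, where TMM gave -0.52, and to -0.42 for MSC-IVM-MII minus GV at 6wk, where TMM gave -0.29. Counts of members past 1 are listed next where they changed by a factor above 1.5, or to or from 0. They are written as higher or lower, with the cause not tested. Smaller changes are left out. For IVM-MII minus GV at 6wk, for example, the 3 higher became 2 with DESeq2 size factors and with TPM. They became 4 with no filter and at a 1.5-fold limit. In MSC-IVM-MII minus IVM-MII at 12m (1 higher, 1 lower), higher was 2 with TPM, with a pseudocount of 0.25 and at a 1.5-fold limit, and 0 with a pseudocount of 5, relative to long genes and at a 3-fold limit; lower was 0 with TPM, a pseudocount of 5 and a 3-fold limit, 2 with a pseudocount of 0.25 and within title prefixes, and 3 at a 1.5-fold limit. In the same comparison at 6wk (1 and 1), higher was 2 at 1.5-fold and without the Y01 oocytes and 0 at 3-fold; lower was 0 with a pseudocount of 5, and 2 relative to long genes, at 1.5-fold and without the Y01 oocytes. In MSC-IVM-MII minus GV at 12m (3 and 2), higher was 1 at 3-fold, and lower was 1 with a pseudocount of 5 and at 3-fold; at 6wk (4 and 2), lower was 0 with TPM, a pseudocount of 5 and 3-fold, and 1 within prefixes. In IVM-MII minus GV at 12m (2 and 1), higher was 1 with TPM, a pseudocount of 5, 3-fold and within prefixes; at 6wk (3 and 0), higher was 1 with a pseudocount of 5, relative to long genes and at 3-fold, and lower was 1 with a pseudocount of 0.25, at 1.5-fold and without the Y01 oocytes, where the median of the 8 was -0.35. In 12m minus 6wk in IVM-MII (1 and 2), higher was 0 with DESeq2, the plain library total, TPM, no filter, a pseudocount of 5 and 3-fold, 2 without mitochondrial genes and at 1.5-fold, and 3 with a pseudocount of 0.25 and without the Y01 oocytes; lower was 1 with a pseudocount of 5 and 0 at 3-fold. In GV (2 and 0), higher was 1 with the plain total, TPM, a pseudocount of 5, relative to long genes and at 3-fold, and 4 at 1.5-fold. In MSC-IVM-MII (1 and 1), higher was 0 with a pseudocount of 5 and 3-fold, and lower was 2 with a pseudocount of 0.25 and 0 at 3-fold and without the Y01 oocytes. With each oocyte left out in turn, higher counts ran from 2 to 5 and from 1 to 3 in IVM-MII minus GV at 6wk and 12m, 0 to 3 and 0 to 2 in MSC-IVM-MII minus IVM-MII, and 0 to 4, 1 to 3 and 0 to 1 for age in GV, IVM-MII and MSC-IVM-MII; lower counts ran from 0 to 1 and 0 to 2 in IVM-MII minus GV, 1 to 2 and 1 to 4 in MSC-IVM-MII minus GV, 1 to 2 in MSC-IVM-MII minus IVM-MII at 12m and 0 to 2 for age in MSC-IVM-MII. The medians of the 8 then ran from -0.35 to 1.15 for IVM-MII minus GV at 6wk and from 0.24 to 1.31 for MSC-IVM-MII minus GV at 6wk. Differences relative to long genes and the values without GV 12m oocyte 3 beyond the planned ones were chosen after seeing the data. Depth limits Tut4, Dis3l2 and Edc3 most: 8, 7 and 8 of 18 libraries held 3 or fewer counts of them. No paired analysis was possible because the replicate numbers used here were given in accession order and pair no oocytes, the labels holding none, and no result comes from a test; the values within shared title prefixes compare group means inside a prefix and pair no oocytes either.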
